A study of Mus musculus with 10 samples.

Results

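The liver X receptors and the genes they control for sterol export were examined as 10 genes in inguinal fat, a subcutaneous white depot. The genes were chosen by name for their known roles, with earlier results of these data known: the receptor genes Nr1h3 and Nr1h2, the sterol efflux and lipid transfer genes Abca1, Abcg1, Pltp, Apoe and Apoc1, and the further targets Mylip, Smpdl3a and Arl4c. All 10 were found among the 40501 gene identifiers of the deposited count table, 1 identifier each, and all 10 had enough reads to be tested.

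The study compared 5 PexRAP-AKO mice (the Cre-positive adipose knockout, replicates 1, 2, 3, 5 and 6) with 5 Control mice (Cre-negative, replicates 2, 3, 5, 7 and 8). All were chow-fed males of the C57/BL6J strain. The labels give 8 weeks both as the age and as the time on chow, and the sources used here do not name the Cre driver. The labels number the samples but do not say how the mice are related, so p-values measure the spread between these samples.

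Liver X receptors are nuclear receptors that bind oxysterols, oxidised forms of cholesterol, and pair with a retinoid X receptor on DNA. Nr1h3 encodes LXRα, which is prominent in liver, fat and macrophages, and Nr1h2 encodes LXRβ, which is found widely. When active, they raise transporters and apolipoproteins that move cholesterol out of cells, raise an E3 ligase that limits lipoprotein uptake, and also raise genes of fatty acid synthesis through SREBP-1c.

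The libraries held 11274865 to 19881168 counts. Dhrs7b, which encodes PexRAP, an enzyme of peroxisomal ether lipid synthesis, stood at 17.9 to 22.8 CPM in PexRAP-AKO libraries and at 61.2 to 95.8 CPM in Control libraries (CPM, counts relative to the TMM-scaled library size). The groups did not overlap, at a log2 fold change of -2.05 (SE 0.12, adjusted p = 1.54e-05 by edgeR's quasi-likelihood test). Over the whole table, 15 of 14913 genes, 0.101%, passed that test at an adjusted p under 0.05, 14 higher in PexRAP-AKO (0.0939%) and 1 lower (0.00671%). Markers of adipocytes took 46980 to 62320 CPM in PexRAP-AKO libraries and 48980 to 65780 CPM in Control libraries, and 12 of 12 such markers were detected well enough to test. Of these, 2 had a positive and 10 a negative fold change, with a median log2 fold change of -0.11, and 0 passed.

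None of the 10 genes passed the same test in PexRAP-AKO against Control fat, and 6 of 10 had a positive fold change, against 49.8% of all genes. Nearest to it were Apoc1, with a 1.68-fold higher mean level, and Nr1h3, 1.14-fold higher. Abca1, Mylip, Nr1h2, Smpdl3a and Apoe had log2 fold changes smaller than 0.1 in size, as did 43.2% of all genes tested. By unadjusted p under 0.05, 3 of 10 stood out, Apoc1, Nr1h3 and Pltp, all higher in PexRAP-AKO, against 15.5% of all genes (9.01% higher and 6.44% lower). By DESeq2, 2 of 10 passed, Nr1h3 and Apoc1, against 2.95% of all genes by that tool (439 of 14892). That share counts 4605 genes to which DESeq2 gave no adjusted p and which could not pass, so it is low for genes with one. The median log2 fold change was 0.06 over the 10 genes and -0.0007 over all genes. In bulk tissue, fewer cells of a type and less RNA per cell cannot be told apart.

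**Figure D1:**
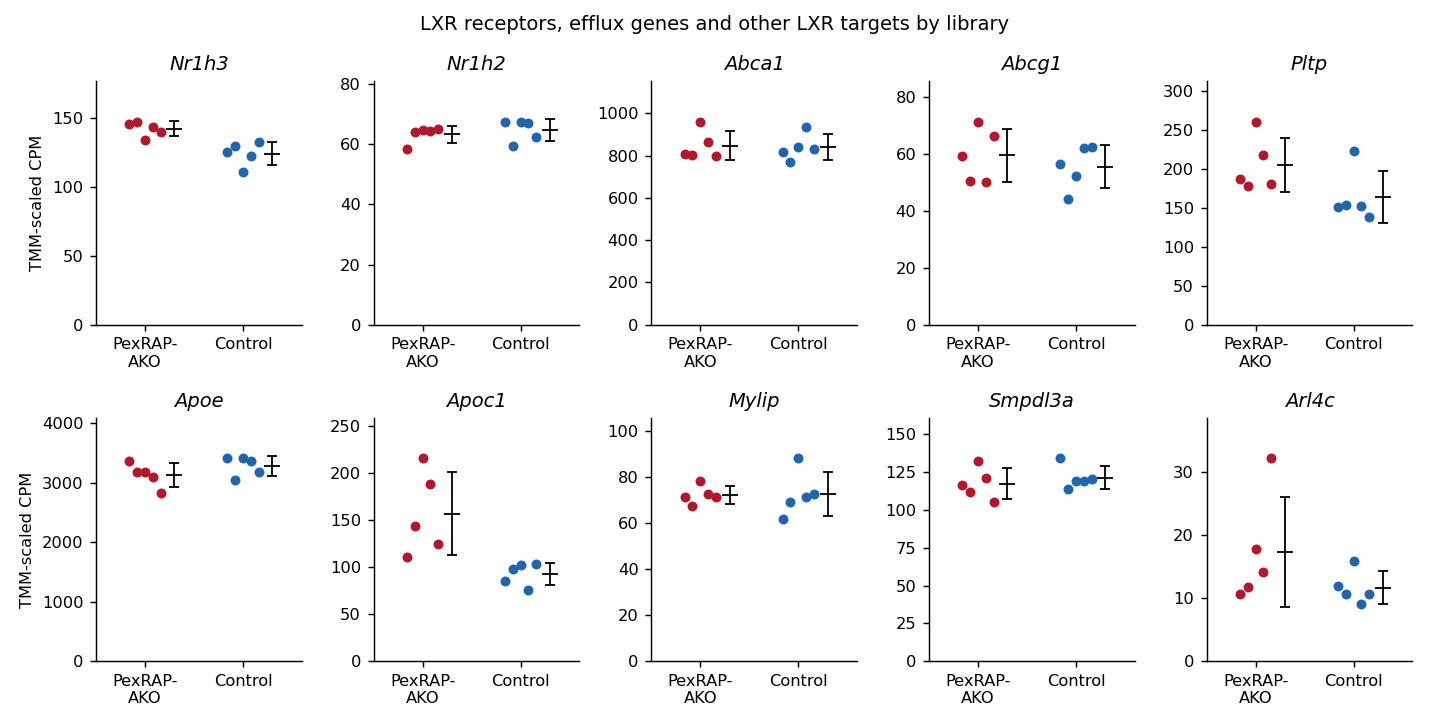
TMM-scaled CPM (y axes, from 0) of each of the 10 genes in 5 PexRAP-AKO and 5 Control libraries; points are libraries, and bars beside them are the mean ± SD. Only Nr1h3 and Apoc1 have all PexRAP-AKO points above all Control points, and 1 PexRAP-AKO library, at 32.2 CPM, stands far above the rest for Arl4c.

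Per kilobase of exon, the order of mean levels was Apoe, Apoc1, Abca1, Pltp, Smpdl3a, Nr1h3, Mylip, Nr1h2, Abcg1 and Arl4c. Apoe, the apolipoprotein that carries lipid out of fat cells and macrophages, averaged 1467 ± 93.3 CPM per kilobase in PexRAP-AKO and 1537 ± 76.1 in Control libraries (SD, n = 5 each). Arl4c, at the other end, averaged 3.16 ± 1.59 CPM per kilobase in PexRAP-AKO and 2.13 ± 0.47 in Control libraries (SD, n = 5 each). Neighbours in this order did not differ beyond their ranges in several places. Abca1 overlapped Pltp in both groups, Smpdl3a overlapped Nr1h3 in PexRAP-AKO, and Pltp overlapped Smpdl3a and Mylip overlapped Nr1h2 in Control. All other neighbours kept apart in each group, so Nr1h3 lay above Nr1h2 in all 10 libraries.

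Of the receptors, Nr1h3 (ENSMUSG00000002108, chromosome 2, 91184061 to 91202834, GRCm38) had 146.2, 147.7, 134.2, 143.9 and 140.5 CPM in PexRAP-AKO replicates 1, 2, 3, 5 and 6, against 125.7, 129.8, 111.2, 122.8 and 132.8 CPM in Control replicates 2, 3, 5, 7 and 8. Every PexRAP-AKO library lay above every Control library, as was the case for 2.08% of genes, with 1.33% apart the other way and 3.41% in all. It had a log2 fold change of 0.20 (SE 0.06, 95% interval 0.07 to 0.32), with an edgeR adjusted p of 0.180 and an exact two-sided permutation p of 0.00794, the smallest that 5 against 5 can give. With total counts alone as the scale the log2 fold change was 0.12, and PexRAP-AKO replicate 3, at 131.0 CPM, fell within the Control range of 117.9 to 136.6. DESeq2 gave an adjusted p of 0.0392.

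Nr1h2 (ENSMUSG00000060601, chromosome 7, 44549616 to 44553951) had 58.4, 63.98, 64.8, 64.5 and 65.3 CPM in the PexRAP-AKO libraries and 67.3, 59.4, 67.6, 67.2 and 62.5 CPM in the Control libraries, in the same replicate order. The groups overlapped, with the lowest value in PexRAP-AKO replicate 1. Its log2 fold change of -0.03 had a 95% interval of -0.15 to 0.09 (edgeR adjusted p = 0.838), which spans folds of 0.900 to 1.07.

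The receptors were also set against each other within a library, where scaling cancels. Nr1h3 had 2.50, 2.31, 2.07, 2.23 and 2.15 reads per Nr1h2 read in PexRAP-AKO libraries, against 1.87, 2.19, 1.65, 1.83 and 2.12 in Control libraries. The groups overlapped, since Control replicates 3 and 8 lay within the PexRAP-AKO range. The mean was 2.25 ± 0.17 in PexRAP-AKO and 1.93 ± 0.22 in Control (SD, n = 5 each, exact two-sided permutation p = 0.0476, adjusted p = 0.0476 over the 2 ratios tested). This ratio was chosen after the values were seen, and its p rose above 0.05 when 1 of 7 libraries was dropped, namely PexRAP-AKO replicate 1, 2, 5 or 6 or Control replicate 2, 5 or 7 (exact permutation p = 0.0635 to 0.0952).

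Abca1 (ENSMUSG00000015243, chromosome 4, 53030787 to 53159895) encodes the transporter that loads cholesterol and phospholipid onto apolipoprotein A-I, and a DR4 element in its promoter is a well-known LXR binding site. DR4 elements are direct repeats of a hexamer with 4 bases between them, written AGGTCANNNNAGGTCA. In the RefSeq promoter windows (GRCm38.p6, 250 bases before to 50 after a start site), the closest match to that motif was searched on both strands, and the Abca1 window is shown because it holds the element. The 250 bases before the start site lie at chr4:53159896-53160145 on the minus strand and are printed in the direction of the gene, with the hexamers of the match in capitals.

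Abca1 promoter: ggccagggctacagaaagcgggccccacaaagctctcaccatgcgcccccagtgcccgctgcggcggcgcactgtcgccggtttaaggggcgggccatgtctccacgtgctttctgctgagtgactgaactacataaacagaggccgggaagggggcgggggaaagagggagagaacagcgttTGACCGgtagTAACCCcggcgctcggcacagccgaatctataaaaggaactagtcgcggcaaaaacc

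The match begins 67 bases before the start site, reads on the other strand and differs from the motif at 3 of the 12 fixed letters. Windows were found for 7 of the 10 genes. The closest matches of those named next are set side by side, because the window of Arl4c matched as closely as that of Abca1 while those of the receptor genes matched less well. Capitals mark the hexamers.
Abca1: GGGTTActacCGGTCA
Arl4c, first match: GGGTCAggcgGGGTCT
Arl4c, second match: CGGTCTcccgGGGTCA
Nr1h3: AGGTCCcggcACGGCC
Nr1h2: AGTTCCggaaAGTTCT
The Arl4c matches overlap each other and also have 3 mismatches, and 21.9% of all 32851 promoter windows had at most 3. Those of Nr1h3, Nr1h2 and Apoe had 4 mismatches, and 76.9% of windows had at most 4, while those of Mylip and Pltp had 5. A match is a description of letters and not a measured binding site.

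Abca1 had 805.6, 804.1, 960.1, 865.5 and 797.4 CPM in PexRAP-AKO replicates 1, 2, 3, 5 and 6, and 816.4, 769.6, 841.1, 936.3 and 831.1 CPM in Control replicates 2, 3, 5, 7 and 8. The groups overlapped almost entirely, with 1 PexRAP-AKO library above the Control range and none below. The log2 fold change was 0.01 (SE 0.08, edgeR adjusted p = 0.958), and its 95% interval spanned folds of 0.888 to 1.15. Its sign turned under 6 of 24 alternatives. At 9600 to 16746 reads per library, counting error was small for this gene.

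Abcg1 (ENSMUSG00000024030, chromosome 17, 31057675 to 31117988), the transporter that passes cholesterol to HDL particles, had 59.0, 50.5, 71.2, 50.2 and 66.2 CPM in PexRAP-AKO libraries and 56.4, 44.1, 52.2, 61.9 and 62.3 CPM in Control libraries. PexRAP-AKO replicates 3 and 6 lay above the Control range and the other 3 within it. Its log2 fold change of 0.10 had a wide 95% interval of -0.16 to 0.37 (edgeR adjusted p = 0.725). Over 24 alternatives it ran from 0.03 to 0.19, lowest without Control replicate 3 and highest in the fit with brown adipocyte markers. Without PexRAP-AKO replicates 2, 3, 5 or 6 in turn it was 0.16, 0.03, 0.16 and 0.06.

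Pltp (ENSMUSG00000017754, chromosome 2, 164839518 to 164857711), which encodes the phospholipid transfer protein of plasma, had 187.2, 177.7, 260.3, 217.0 and 180.7 CPM in PexRAP-AKO libraries, against 150.6, 153.9, 223.1, 152.0 and 138.3 CPM in Control libraries. All 5 PexRAP-AKO libraries lay above 4 of the 5 Control libraries, and Control replicate 5 lay above 4 PexRAP-AKO libraries. Its log2 fold change was 0.32 (SE 0.14, 95% interval 0.01 to 0.64, edgeR adjusted p = 0.316, exact permutation p = 0.103). In a fit with brown adipocyte markers as a covariate it was 0.13, and with macrophage markers 0.29 (edgeR adjusted p = 0.772 and 0.0939). Without Control replicate 5 it was 0.46, and without PexRAP-AKO replicate 3 it was 0.22 (edgeR adjusted p = 0.116 and 0.519). The exons of Pltp share 495 of 2562 bases with those of Ctsa, the cathepsin A gene on the opposite strand, and no source used here states the strand setting of the counting. Ctsa, looked up for this overlap after the values were seen, had a log2 fold change of -0.06 (edgeR adjusted p = 0.761).

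Apoe (ENSMUSG00000002985, chromosome 7, 19696109 to 19699188) had 3372, 3189, 3188, 3107 and 2824 CPM in PexRAP-AKO libraries and 3413, 3048, 3412, 3369 and 3188 CPM in Control libraries. It was the most abundant of the 10 genes, and the groups overlapped, with PexRAP-AKO replicate 6 lowest. The log2 fold change was -0.07 (SE 0.09, 95% interval -0.26 to 0.12, edgeR adjusted p = 0.759).

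Apoc1 (ENSMUSG00000040564, chromosome 7, 19689481 to 19692660), its neighbour on the same strand, encodes a small apolipoprotein of HDL and triglyceride-rich particles. It had 110.3, 143.8, 215.3, 188.3 and 124.7 CPM in PexRAP-AKO libraries, against 85.6, 97.5, 102.1, 75.4 and 103.5 CPM in Control libraries. Every PexRAP-AKO library lay above every Control library, with replicates 3 and 5 furthest above. Apoc1's log2 fold change was 0.75 (SE 0.18, 95% interval 0.36 to 1.15), with an edgeR unadjusted p of 0.00155, an adjusted p of 0.125 and an exact permutation p of 0.00794. The adjusted p ranged from 0.00316 with DESeq2 to 0.466 when the brown adipocyte score entered the fit, where the log2 fold change was 0.53. With the macrophage score in the fit it was 0.039, a call that 0.563% of genes passed in that fit. With total counts alone PexRAP-AKO replicate 1, at 107.6 CPM, fell just under the highest Control library at 108.2.

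Apoc1 and Apoe adjoin each other and share a known LXR-responsive enhancer in macrophages. Apoc1 had 3.27, 4.51, 6.75, 6.06 and 4.42 reads per 100 Apoe reads in PexRAP-AKO libraries, against 2.51, 3.20, 2.99, 2.24 and 3.25 in Control libraries. The groups did not overlap, but the lowest PexRAP-AKO library and the highest Control library nearly touched. The mean was 5.002 ± 1.39 per 100 in PexRAP-AKO and 2.84 ± 0.44 in Control (SD, n = 5 each, exact two-sided permutation p = 0.00794, adjusted p = 0.0159 over the 2 ratios). The ratio does not depend on the scaling of libraries, and like the receptor ratio it was chosen after the values were seen. Its log2 difference of 0.79 stayed between 0.67 and 0.93 with any 1 library left out. The exact permutation p was 0.0159 each time, the smallest that 4 against 5 can give. That p was fixed in advance, since groups that do not overlap stay apart when a library is dropped.

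**Figure D2:**
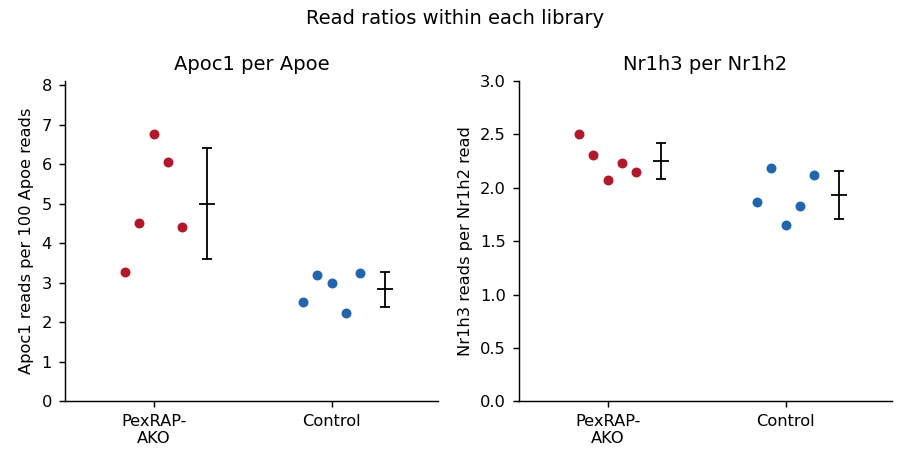
Reads of Apoc1 per 100 reads of Apoe (left) and reads of Nr1h3 per read of Nr1h2 (right) in each library, y axes from 0, for 5 PexRAP-AKO and 5 Control libraries; points are libraries and bars the mean ± SD. The Apoc1 ratio runs from 3.27 to 6.75 in PexRAP-AKO and from 2.24 to 3.25 in Control, and the receptor ratios overlap.

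The other genes of that cluster did not pass the test either. Apoc2, which encodes the activator of lipoprotein lipase, averaged only 4.14 ± 1.96 CPM in PexRAP-AKO and 1.98 ± 0.72 CPM in Control libraries (SD, n = 5 each, log2 fold change 1.03, edgeR adjusted p = 0.206). Among the flanking genes, Clptm1 had a log2 fold change of 0.18 and Tomm40, a subunit of the mitochondrial import pore, one of 0.21 (edgeR adjusted p = 0.248 and 0.293). Of the 9 genes of the neighbourhood list, which includes Apoe and Apoc1, 6 had a positive fold change and 0 passed. At an edgeR unadjusted p under 0.05, 5 of the 9, Apoc1 among them, were higher in PexRAP-AKO and 0 lower. Over all genes, 9.01% were higher and 6.44% lower at that level.

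Of the remaining targets, Mylip (ENSMUSG00000038175, chromosome 13, 45389742 to 45412022) encodes IDOL, an E3 ubiquitin ligase that limits lipoprotein uptake. It had 71.2, 67.2, 78.3, 72.6 and 71.0 CPM in PexRAP-AKO libraries and 61.7, 68.9, 87.95, 71.1 and 72.7 CPM in Control libraries. All 5 PexRAP-AKO libraries fell within the Control range. Mylip had a log2 fold change of -0.01 (SE 0.08, edgeR adjusted p = 0.970), with folds of 0.874 to 1.13 in its 95% interval.

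Smpdl3a (ENSMUSG00000019872, chromosome 10, 57794335 to 57811830), a secreted phosphodiesterase that responds to LXR in macrophages, had 116.4, 111.5, 132.4, 121.1 and 105.1 CPM in PexRAP-AKO libraries and 133.9, 113.5, 119.1, 118.7 and 120.3 CPM in Control libraries. The groups overlapped, with PexRAP-AKO replicates 2 and 6 under the Control range. Its log2 fold change was -0.05 (SE 0.07, 95% interval -0.20 to 0.11, edgeR adjusted p = 0.804).

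Arl4c (ENSMUSG00000049866, chromosome 1, 88673125 to 88702221) encodes a small GTP-binding protein linked to vesicle traffic and cholesterol export. It had 10.7, 11.8, 17.9, 14.2 and 32.2 CPM in PexRAP-AKO libraries and 11.99, 10.6, 15.97, 9.11 and 10.8 CPM in Control libraries. PexRAP-AKO replicate 6 had the highest value by far, and 3 of the other 4 PexRAP-AKO libraries lay within the Control range. The log2 fold change of 0.57 (SE 0.29, 95% interval -0.09 to 1.22, edgeR adjusted p = 0.394) was 0.22 without that library and 0.36 in the fit with brown adipocyte markers. The 10 T and B cell markers summed to 143.5 CPM in PexRAP-AKO replicate 6, against 10.7 to 26.6 CPM in the other PexRAP-AKO libraries and 10.4 to 47.4 CPM in Control libraries, and the part of those cells in the Arl4c value was not tested.

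The genes whose levels varied most like these across the 10 libraries, after subtracting each group's mean, were listed as a description over 10 libraries sharing depth and tissue makeup. They are the highest r among 13079 genes compared, so a high r follows in part from the search. For Arl4c they were Akna, Unc13d and Il27ra (Pearson r 0.966, 0.965 and 0.963). For Pltp they were Ctsz, Hk3 and Shtn1 (0.971, 0.970 and 0.969), the first 2 of which encode a lysosomal protease and a hexokinase of myeloid cells. Apoc1 was closest to Lacc1, Ank1 and Tent2 (0.976, 0.968 and 0.962), Mylip to Atp8b2, Sh3gl1 and Gas2l3 (0.977, 0.948 and 0.939), and Abcg1 to Pcsk4, Fbxo34 and Tmem86a (0.959, 0.943 and 0.941). Those like Abca1 included Dhx58 and Pla2g4a (0.925 and 0.917), and Nr1h3 was closest to Slx4ip, Slc16a10 and Zfp316 (0.923, 0.900 and 0.900). Nr1h2 was closest to Galnt11, Zbtb45 and Rnmt, Apoe to Zfp951, Abcf2 and Rgs16, and Smpdl3a to Brix1, Zfp639 and Snrpd1 (0.901 to 0.967). None of the genes named here was another of the 10. Among the 10 themselves, Pltp ran with Mylip (0.797) and against Nr1h3 (-0.874).

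Macrophages express several of these genes, so their levels were set beside cell markers. The 15 macrophage markers summed to 1086 to 3105 CPM in PexRAP-AKO libraries and 1276 to 2502 CPM in Control libraries, 13 of 15 with a positive fold change and 0 past the threshold. A separate list of 9 markers of lipid-associated macrophages summed to 150.5 to 358.6 CPM in PexRAP-AKO and 169.7 to 527.6 CPM in Control libraries. Of these, 2 had a positive and 7 a negative fold change, and 0 passed. PexRAP-AKO replicate 3 and Control replicate 5 had the highest macrophage sums of their groups, and also the highest Pltp and Mylip. The 12 brown adipocyte markers summed to 616 to 2978 CPM in PexRAP-AKO libraries and 285 to 2300 CPM in Control libraries. All 11 of them that could be tested had a positive fold change and 0 passed. Endothelial markers summed to 721 to 1010 CPM in PexRAP-AKO libraries and 1007 to 1221 CPM in Control libraries, with 10 of 10 negative fold changes and 0 passing. Skeletal muscle markers summed to 11.2 to 119.7 CPM in PexRAP-AKO libraries and 16.3 to 1244 CPM in Control libraries, with 9 of 9 tested fold changes negative, 4 of them at an unadjusted p under 0.05, and 0 passing. The part of endothelial and muscle cells in the results was not tested.

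Over the 10 libraries, Pltp correlated with the mean log2 CPM of the brown adipocyte markers (Pearson r = 0.821, permutation p = 0.00386, Spearman rho = 0.806, permutation p = 0.00681, r = 0.736 without Control replicates 7 and 8). It also correlated with the macrophage markers (r = 0.769, permutation p = 0.0102, rho = 0.539, permutation p = 0.114). Before centring, that r was only 0.368 without PexRAP-AKO replicate 3 and Control replicate 5. After each group's mean was subtracted, Pltp and the macrophage markers had r = 0.893 (permutation p = 0.00168, adjusted p = 0.0336), the 1 of 20 relations to pass in that form. Mylip and the macrophage markers had r = 0.747 (permutation p = 0.00986) and rho = 0.891 (permutation p = 0.00109). Their r was 0.433 without PexRAP-AKO replicate 3 and Control replicate 5. Neither rho nor any centred r was computed without those libraries. Apoc1 followed the brown adipocyte markers (r = 0.716, permutation p = 0.0204, rho = 0.673, permutation p = 0.0388, r = 0.717 without Control replicates 7 and 8). With each group's mean subtracted, that r was 0.599 (permutation p = 0.0676). For Apoc1 and the macrophage markers, r was 0.543 before centring (permutation p = 0.101). It was 0.771 after centring (permutation p = 0.00901, adjusted p = 0.0529). Of the 20 relations computed without centring, none had an adjusted p under 0.05 by Pearson's r, the lowest being 0.0683. By Spearman's rho the relation of Mylip to macrophage markers passed (adjusted p = 0.0218). For Abca1, Abcg1 and Apoe, Pearson's r with these scores before centring ran from -0.293 to 0.619, none with an adjusted p under 0.05. By Spearman's rho, Abca1 and the macrophage markers had 0.758 (permutation p = 0.015, adjusted p = 0.1). Their Pearson r was 0.619, and 0.372 without PexRAP-AKO replicate 3 and Control replicate 5. The part of these cells in the levels of Apoc1 and Pltp was not tested beyond the covariate fits given above.

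**Figure D3:**
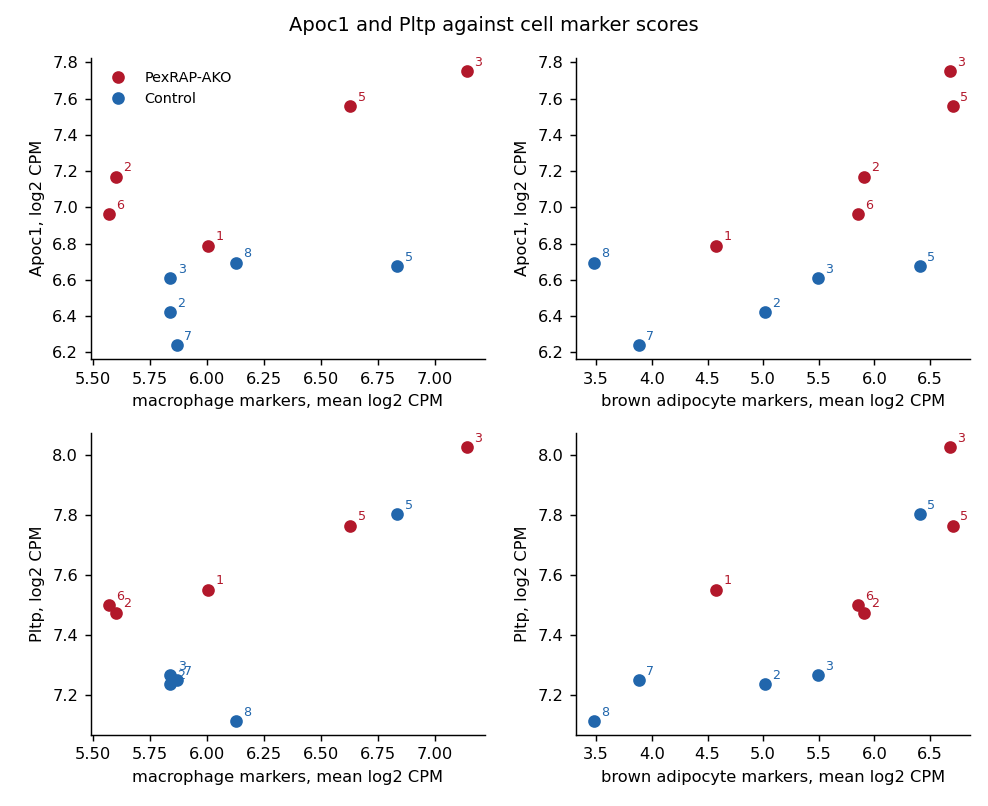
Log2 CPM of Apoc1 (top) and Pltp (bottom) against the mean log2 CPM of macrophage markers (left) and brown adipocyte markers (right) in 5 PexRAP-AKO and 5 Control libraries; numbers beside points are replicate numbers. PexRAP-AKO replicate 3 and Control replicate 5 lie furthest right in their groups on the macrophage axis, and for Apoc1 all 5 PexRAP-AKO libraries lie above all 5 Control libraries.

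The lipogenic and phospholipid arm of LXR targets was described beside the efflux genes in the same comparison. Lpcat3, which puts polyunsaturated chains into phospholipids, rose to 149.6 ± 23.2 CPM in PexRAP-AKO libraries, against 78.6 ± 8.58 CPM in Control libraries (SD, n = 5 each, log2 fold change 0.93, edgeR adjusted p = 0.00892), and was the 1 of 8 listed genes to pass. Its call was lost without Control replicate 8, at a log2 fold change of 0.90. The list's median log2 fold change was 0.77, with 7 of 8 positive. At an edgeR unadjusted p under 0.05, 6 of 8 were higher in PexRAP-AKO, against 9.01% of all genes. Srebf1, which encodes the SREBP-1 factors and is the best-known LXR target of this arm, averaged 675 ± 73.3 CPM in PexRAP-AKO and 548 ± 42.0 CPM in Control libraries (log2 fold change 0.30, edgeR adjusted p = 0.185). The desaturase genes Scd1 and Scd2 had log2 fold changes of 0.77 and 2.08 (edgeR adjusted p = 0.0733 and 0.0838). The fatty acid synthesis genes Fasn and Acaca had log2 fold changes of 0.89 and 0.78 (edgeR adjusted p = 0.293 and 0.306). Lpl, the lipoprotein lipase gene, had one of 0.03 and Mlxipl, which encodes the glucose-responsive factor ChREBP, one of -0.26. Srebf1, Scd1, Scd2, Fasn, Acaca, Lpl and Mlxipl were named after their values were seen. Whether the lipogenic and efflux arms differ was not tested, and several of the lipogenic genes are also driven by SREBP and ChREBP.

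**Figure D4:**
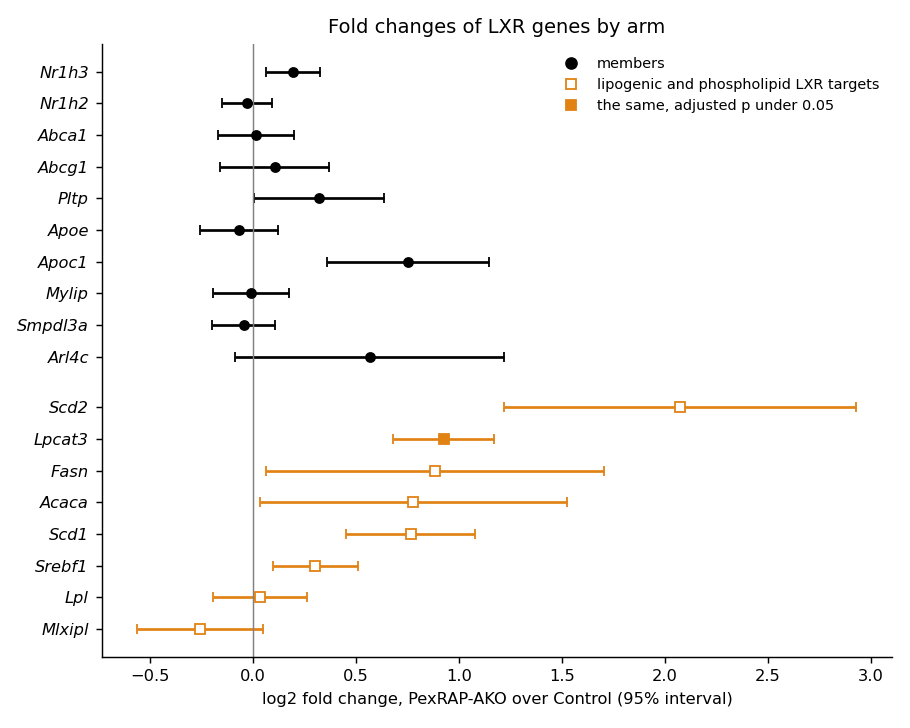
Log2 fold change of PexRAP-AKO over Control (x axis) with 95% intervals for the 10 genes (black circles) and 8 lipogenic and phospholipid LXR targets (orange squares, filled where the adjusted p is under 0.05). Lpcat3 at 0.93 is the filled point, and the intervals of Abca1, Abcg1, Mylip, Nr1h2, Apoe, Smpdl3a, Arl4c, Lpl and Mlxipl span 0.

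Other LXR targets known from liver and macrophages had a median of -0.03 on the log2 scale, with 4 of 11 tested genes positive and 0 past the threshold. Npc2, which carries cholesterol out of lysosomes, averaged 395 ± 33.9 CPM in PexRAP-AKO and 323 ± 19.2 CPM in Control libraries (log2 fold change 0.29, edgeR adjusted p = 0.143). Vldlr, a lipoprotein receptor, had a log2 fold change of 0.35 (edgeR adjusted p = 0.211) and Lbp, which binds bacterial lipopolysaccharide, one of -0.45 (edgeR adjusted p = 0.358). Abcg5, Abcg8 and Cyp7a1, LXR targets of liver and gut, had too few reads to test.

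The partners and coregulators of the receptors showed no call among 16 genes, with a median of -0.03. Rxra, the main retinoid X receptor gene of the list, averaged 245 ± 28.5 CPM in PexRAP-AKO and 285 ± 22.6 CPM in Control libraries (log2 fold change -0.22, edgeR adjusted p = 0.271). Ncor1, a corepressor, had a log2 fold change of -0.27 and Tbl1xr1, a subunit of its complex, one of 0.26 (edgeR adjusted p = 0.244 and 0.112). Ppargc1a, a coactivator of brown fat, had one of 0.43 (edgeR adjusted p = 0.225).

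Enzymes that make or remove oxysterols had 0 of 8 calls. Cyp27a1, the sterol 27-hydroxylase, stood at 35.6 ± 3.67 CPM in PexRAP-AKO and 37.5 ± 4.20 CPM in Control libraries (log2 fold change -0.08, edgeR adjusted p = 0.736). Ch25h, which makes 25-hydroxycholesterol, had too few reads to test. Sult2b1, which sulfates oxysterols, was at 2.24 ± 0.52 CPM in PexRAP-AKO and 1.05 ± 0.68 CPM in Control libraries (edgeR adjusted p = 0.202), and Hsd3b7, of bile acid synthesis, had a log2 fold change of -0.15 (edgeR adjusted p = 0.192).

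Genes of sterol uptake, storage and transport had 15 of 22 positive fold changes, a median of 0.12 and 0 calls. Scarb1, the HDL receptor, had a log2 fold change of 0.26 and Gramd1b, a cholesterol carrier between membranes, one of 0.35 (edgeR adjusted p = 0.159 and 0.182). Efflux transporters and apolipoproteins outside the 10 genes also had 0 calls among 15, with a median of 0.08. Abcg4, a relative of Abcg1, was at 2.33 ± 0.26 CPM in PexRAP-AKO and 3.37 ± 0.39 CPM in Control libraries (log2 fold change -0.53, edgeR adjusted p = 0.156). Its groups did not overlap, as was the case in that direction for 1.33% of all genes. Hsd3b7, named above, was also apart in that direction. Lpcat3, Scd1, Scd2, Npc2 and Tbl1xr1 were apart with PexRAP-AKO higher, as were 2.08% of all genes. Lipg, the endothelial lipase gene, had a log2 fold change of 0.65 and Abca5 one of -0.17 (edgeR adjusted p = 0.188 and 0.341). Among the 8 tested relatives of the 10 genes there was no call, and Arl4d and Abca7 had log2 fold changes of -0.24 and 0.10 (edgeR adjusted p = 0.349 and 0.531).

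The cholesterol synthesis and SREBP2 target list, genes that cells lower when sterol is plentiful, had 24 of 24 tested genes with a positive fold change and a median of 0.68. Of these, 4 rose past the threshold, namely Insig1 (1.16), Cyp51 (1.06), Lss (0.82) and Msmo1 (0.64 on the log2 scale, edgeR adjusted p = 0.0173, 0.0173, 0.0173 and 0.0335). These calls held in 14, 15, 13 and 11 of 24 alternatives in that order, with positive fold changes throughout. All 4 were lost in the fit with brown adipocyte markers and when 1 of 6 libraries was dropped (PexRAP-AKO replicate 2 or 5, and Control replicate 2, 5, 7 or 8). Lss and Msmo1 were also lost without PexRAP-AKO replicate 3, and Msmo1 without PexRAP-AKO replicate 6. The summed level of the list was 1849 to 2242 CPM in PexRAP-AKO libraries and 1081 to 1486 CPM in Control libraries. Members and lists come from 1 comparison of the same 10 libraries, so their directions are not separate results.

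**Figure D5:**
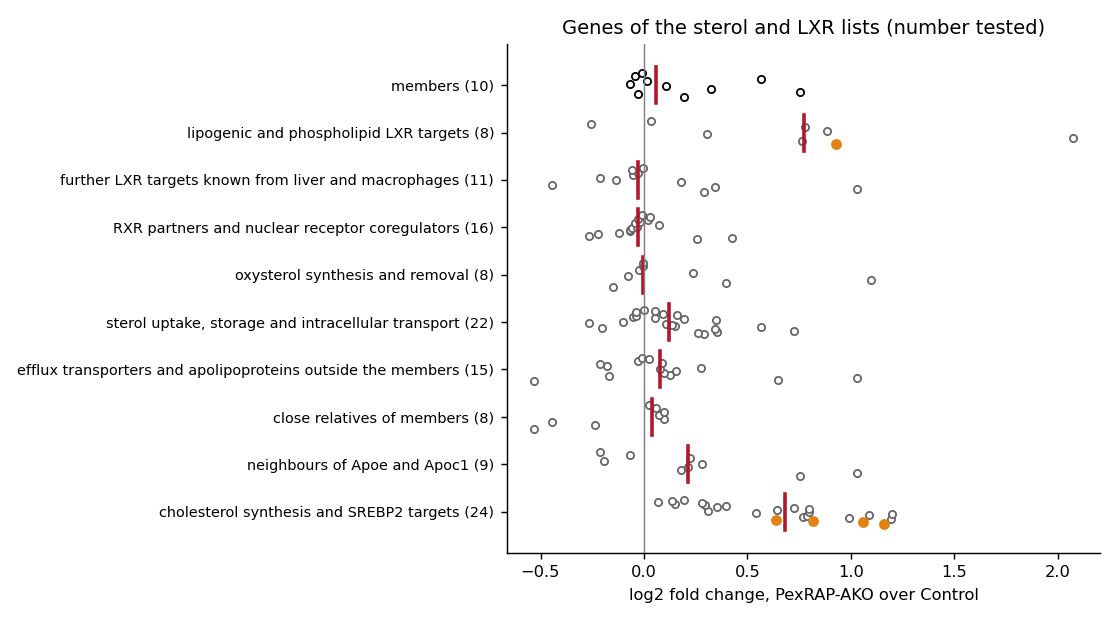
Log2 fold change of PexRAP-AKO over Control (x axis) for each tested gene of the 10 genes and of 9 related lists, with the number tested in brackets; circles are genes, filled orange where the adjusted p is under 0.05, and red bars are medians. The medians of the 10 genes (0.06) and of most lists lie near 0, while those of the lipogenic LXR targets (0.77) and of cholesterol synthesis (0.68) lie to the right.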

How the data were processed

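RNA-seq of inguinal fat from 5 PexRAP-AKO and 5 Control mice was used, 1 library per sample. The deposited values are raw read counts per gene; the authors' tools, per the submitters' processing notes, were STAR 2.0.4b, Subread, featureCounts and edgeR. No source used here states build, annotation or strand setting. Of 40724 rows, 117 identifiers stood more than once with identical counts and were kept once, leaving 40501. Groups come from the sample titles.

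Counts were scaled by TMM, filtered with filterByExpr (minimum count 10, minimum total 15; 14913 genes left) and tested with edgeR 4.0.16 (R 4.3.3, robust quasi-likelihood F test, all 10 libraries, no covariate, Benjamini-Hochberg over all genes, threshold 0.05). Standard errors are the log2 fold change over the square root of F, and 95% intervals use the t distribution. Log2 CPM used a prior count of 2. Exon lengths and coordinates are from GENCODE M21 (GRCm38), which held 99.6% of identifiers. Promoters are from RefSeq (GRCm38.p6). The test was tried on simulated counts. Replicates differed by more than sampling noise (lowest chi-square per degree of freedom 7.73) and were kept separate. Alternatives used DESeq2 1.42.0, limma 3.58.1, other scalings and filters, marker scores as covariates, a replicate block and left-out libraries.

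The 10 genes and the lists were chosen with earlier results of these data known. The genes named were the 10, Dhrs7b, and of each list those past the threshold or else the 4 lowest p; any other was picked later and is marked so. For each of the 10, the 3 most similar genes by r (mean of at least 1 CPM, no predicted name) were named. A few genes that this rule selects are not reported here.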

Additional observations from a re-analysis of the deposited data

Results flagged for a closer look

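Of 124 groups of 5 values, 9 had a single library standing away from the other 4; about 6.2 would be flagged by chance. Among the LXR genes, Nr1h2 was low in PexRAP-AKO replicate 1 (log2 CPM 5.87, the others 6.0 to 6.03) and Pltp was high in Control replicate 5 (7.80, the others 7.11 to 7.27). Control replicate 5 was also high for the list of further LXR targets of liver and macrophages (mean log2 CPM 5.12) and low for adipocyte markers (11.13). Tbl1xr1 (6.55) and Msmo1 (4.87) were low in PexRAP-AKO replicate 1, Abca5 was low in PexRAP-AKO replicate 6 (4.64), and Ppargc1a was low in Control replicate 8 (4.17). Epithelial markers, of which 1 of 6 had enough reads to test, were high in PexRAP-AKO replicate 6 (3.42).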

How the results depend on the processing

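Dhrs7b kept its call under all 24 alternatives (log2 fold change -2.14 to -1.99). None of the 10 genes passed in 22 of 24: DESeq2 called 2 (Nr1h3 at 0.20, Apoc1 at 0.75) and the macrophage score as a covariate called 1 (Apoc1 at 0.69); 0 passed with any 1 library left out. Of their 240 values under alternatives, 226 kept both sign and side of the threshold, 3 kept their sign and crossed it, and 11 turned sign. Abca1 turned with upper-quartile scaling (-0.0020), total counts alone (-0.058), sample weights (-0.0036), the macrophage score (-0.001), and without PexRAP-AKO replicate 3 (-0.0359) or Control replicate 3 (-0.0165), within -0.0359 to 0.0554 over libraries left out. Mylip turned with limma voom (0.0001), sample weights (0.0373), the replicate block (0.0047), and without PexRAP-AKO replicate 2 (0.0154) or Control replicate 5 (0.0708), within -0.0629 to 0.0708 over libraries left out. The cause was not tested.

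The count of 15 genes was 26 with no low-count filter, 439 with DESeq2 (70.4% higher, against 93.3%), 109 with sample weights (81.7% higher), 84 with the macrophage score (66.7% higher), 7 with the brown adipocyte score, 5 without PexRAP-AKO 6 and Control 8 together, and 3 (Control replicate 8) to 58 (PexRAP-AKO replicate 1) with 1 library left out. DESeq2 gave no adjusted p for 4605 genes. Distinct list genes past the threshold outside the 10 were 5, against 24 with DESeq2, 13 with sample weights, 10 with the macrophage score, 2 with the brown score, 0 without PexRAP-AKO 6 and Control 8 and 0 to 11 with 1 left out (0 without Control replicate 8). Lpcat3 kept its call in 21 of 24 alternatives.

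The replicate numbers 2, 3 and 5 occur in both groups. With the replicate number as a block, 3 genes passed, 0 of the 10 genes and 1 list gene; in the same 6 libraries with no block, chosen after seeing the data, 2 passed and 1 list gene. Deviations of same-numbered libraries correlated at -0.02, -0.08 and 0.36, and numbers were therefore not read as pairs. The Nr1h3 per Nr1h2 log2 difference of 0.23 ran from 0.17 to 0.27 with 1 library left out and was 0.28 without PexRAP-AKO 6 and Control 8 (exact permutation p = 0.0571). Marker relations passing were 0 by Pearson's r, 1 by Spearman's rho (Mylip) and 1 after centring within groups (Pltp, macrophage markers). Read counts per library (112 to 456 for Arl4c) limit the rarest gene most.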
